A study of Homo sapiens with 6 samples.

Results

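Nascent-strand sequencing (NS-seq) isolates short nascent strands, which start at replication origins, by size selection and exonuclease treatment, and its peaks mark where replication started in a cell population. The regions described here are those that were found in only 1 of 4 such peak lists. All peaks on chromosomes 1 to 22 and X were pooled, peaks that touched or overlapped were merged into regions, and the regions holding peaks of exactly 1 list were taken. They numbered 321331 of 534833 regions (60.1%), of which 144304 came from siORCA 1, 35452 from siORCA 2, 47419 from control 1 and 94156 from control 2. A further 96583 regions were in 2 lists, 59803 in 3 and 57116 in all 4, and the last are called constant regions.

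The cells were U2OS, a human osteosarcoma line. The siORCA samples were transfected with an siRNA against ORCA, a chromatin protein known as a partner of the origin recognition complex, which marks sites where replication can start, and the control samples with a control siRNA (gl3), with 2 NS-seq samples each. Nothing in the labels ties the replicates to separate cultures, and their spread, the only one that p-values here can measure, may be technical. ORCA itself is not measured by this DNA assay, so its depletion was not checked here. The study's 2 genomic DNA samples were not analysed here.

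Mammalian replication starts from many more potential sites than are used in any 1 cell cycle. Neighbouring sites form initiation zones, broad stretches in which different cells start replication at different places, and early zones lie mostly in open, gene-rich chromatin. A list of peaks from a cell population holds sites that are used often and, where the depth allows it, sites used by few cells. It can also hold false calls. The question for the single-sample regions was whether they lay within such zones, taken here as the surroundings of constant regions, or were scattered over the genome.

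The lists differed in length, with 329933 peaks in siORCA 1, 198486 in siORCA 2, 181132 in control 1 and 235444 in control 2. They hold no read counts, so depth is unknown. The longest list, siORCA 1, supplied 44.9% of all single-sample regions, against 11.0% from siORCA 2, 14.8% from control 1 and 29.3% from control 2. Values are therefore given sample by sample, and where regions of all samples were pooled this is said.

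Single-sample regions made up 45.0% of the regions of siORCA 1 and 18.3% of those of siORCA 2, against 26.7% in control 1 and 40.9% in control 2. The siORCA samples held both the highest and the lowest share, with the controls between them. A sample's value depends on the other lists: without siORCA 1, siORCA 2 had 66035 regions of its own, 33.8% of its regions. The mean was 31.6 ± 18.9% in siORCA and 33.8 ± 10.0% in control (SD, n = 2 each; two-sided exact permutation test over samples, p = 1). The number averaged 89878 ± 76970 in siORCA and 70788 ± 33048 in control (SD, n = 2 each; permutation test, exact p = 1). With 2 samples against 2 the smallest p this test can give is 0.33, so no comparison of the groups can pass a threshold of 0.05. With all lists shortened from their weakest peak to the same covered length, the mean number was lower in siORCA, at 51142 against 69179 in control.

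The rule chose members by the presence of a peak, so the strength of their peaks is a description. The authors' fold enrichment, the linear ratio of a peak to the peak caller's background, had a median of 4.01 among the single-sample regions of siORCA 1, against 4.51 over that whole list. It was 3.67 against 4.21 in siORCA 2, 3.42 against 3.82 in control 1 and 3.64 against 3.94 in control 2. In all 4 lists single-sample peaks were thus weaker than the list as a whole. Of the weakest 25% of a list's peaks by fold, 63.0% in siORCA 1, 34.8% in siORCA 2, 48.0% in control 1 and 60.5% in control 2 were single-sample. Of the strongest 25%, 20.9% in siORCA 1, 2.81% in siORCA 2, 5.81% in control 1 and 16.04% in control 2 were.

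Peaks just outside the rule, those in regions of 2 lists, were somewhat stronger and wider than the single-sample peaks. In siORCA 1 the median peak was 133 bp wide at 4.01-fold in single-sample regions and 166 bp at 4.47-fold in regions of 2 lists. In siORCA 2 these were 145 bp at 3.67-fold and 170 bp at 3.93-fold. In control 1 they were 158 bp at 3.42-fold and 189 bp at 3.63-fold, and in control 2 they were 154 bp at 3.64-fold and 183 bp at 3.92-fold. Within each list, both width and fold increased from regions of 1 list to those of 4, whose own peaks had median widths of 286 to 360 bp. A wider peak more readily touches a peak of another list, so the increase in width is in part set by the rule.

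**Figure D1:**
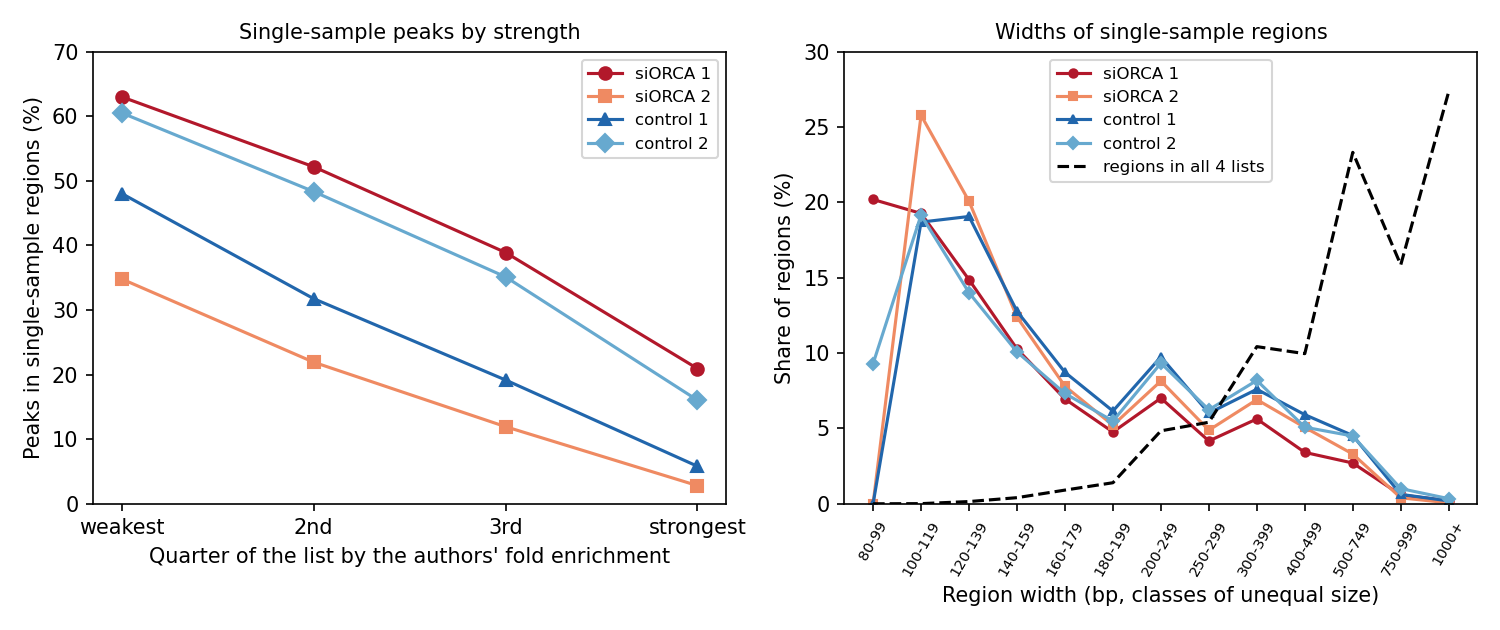
Left, the share of peaks (%) that lie in single-sample regions in each 25% of a list by the authors' fold enrichment, 1 line per sample. Right, the share of regions (%) in classes of width (bp, classes of unequal size) for the single-sample regions of each sample and, as a dashed line, for regions in all 4 lists, whose merged peaks make them wider. The share of single-sample peaks drops with strength in all 4 lists, and most single-sample regions are narrower than 200 bp.

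Single-sample regions were narrow, which a rule based on overlap favours. The median width was 133 bp in siORCA 1 and 145 bp in siORCA 2, against 158 bp in control 1 and 154 bp in control 2, with no overlap between the groups (139 ± 8.49 bp in siORCA and 156 ± 2.83 bp in control, SD, n = 2 each; permutation test, exact p = 0.33). The middle 50% of widths ran from 104 to 193 bp in siORCA 1, from 119 to 219 bp in siORCA 2, from 125 to 249 bp in control 1 and from 115 to 252 bp in control 2. Over all peaks of a list the median width was 167 bp in siORCA 1, 212 bp in siORCA 2, 216 bp in control 1 and 189 bp in control 2. There the groups overlapped. The narrowest peak of a list was 82 bp in siORCA 1, 103 bp in siORCA 2, 106 bp in control 1 and 92 bp in control 2. Between 12.6% and 17.6% of the single-sample regions of a sample lay within 10 bp of that width, and between 3.49% and 5.85% were 500 bp or wider. They covered 25.9 Mb in siORCA 1, 6.97 Mb in siORCA 2, 10.2 Mb in control 1 and 20.1 Mb in control 2, which was 30.1%, 10.9%, 17.5% and 30.01% of the length covered by each list.

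A few single-sample regions were wide or strong. All positions are on T2T-CHM13, with fold values of the authors. In siORCA 1 the widest was on chromosome 15 from 15847089 to 15850004 (2916 bp at 5.63-fold), and in siORCA 2 on chromosome 10 from 64617479 to 64618908 (1430 bp at 3.41-fold). In control 1 the widest was on chromosome 4 from 189385839 to 189388148 (2310 bp at 3.52-fold), and in control 2 on chromosome 1 from 54741341 to 54743956 (2616 bp at 4.52-fold). Against the fold of the same sample's single-sample regions, those of siORCA 1 and control 2 lay above the upper quartile (4.95 and 4.11). That of control 1 lay between the quartiles, and that of siORCA 2 just below the lower one. A peak of another list lay within 0.414 to 1.72 kb of each of these 4 wide regions.

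The strongest single-sample region of siORCA 1 was on chromosome 10 from 120149873 to 120149991, only 119 bp wide at 107-fold, which ranked 67 in that list. In siORCA 2 it was on chromosome 6 from 17054959 to 17055106 (148 bp at 10.4-fold, rank 4696). In control 1 it was on chromosome 18 from 49089333 to 49089459 (127 bp at 17.4-fold, rank 908), and in control 2 on chromosome 19 from 17148505 to 17148708 (204 bp at 40.8-fold, rank 66). At 10-fold or more, siORCA 1 had 3894 single-sample regions, siORCA 2 had 1, control 1 had 5 and control 2 had 105. The lists held 28715, 5339, 3496 and 3847 peaks at that fold in the same order, so these were 13.6% of them in siORCA 1, 0.0187% in siORCA 2, 0.143% in control 1 and 2.73% in control 2. Strong sites of a single list were thus mostly those of siORCA 1, which also had the most peaks at that fold. Their median width was 155 bp in siORCA 1, and 34.9% of them lay within 10 kb of a constant region, close to the 35.1% over all single-sample regions of that sample. Whether the depth of that list has a part in this was not tested.

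Many single-sample regions stood beside a peak of another list that they did not touch. In siORCA 1, 32.1% had another list's peak within 1 kb, in siORCA 2 41.0%, in control 1 37.4% and in control 2 32.8%. Within 100 bp the shares were 2.96%, 5.18%, 4.88% and 3.64% in the same order. How much of the chromosome length lies that close to another list's peaks was not computed. These shares can therefore not be set against an even spread. With peaks merged over gaps of up to 1 kb the single-sample regions numbered 89901 in siORCA 1, 20359 in siORCA 2, 28821 in control 1 and 59413 in control 2. How many sites count as found in 1 sample thus depends on how close peaks must be to be joined.

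Distance to the nearest constant region, counted as the bases between their edges, had a median of 21.5 kb in siORCA 1 and 16.5 kb in siORCA 2, against 24.9 kb in control 1 and 27.5 kb in control 2. Both siORCA samples lay below both controls (19.0 ± 3.58 kb in siORCA and 26.2 ± 1.82 kb in control, SD, n = 2 each; permutation test, exact p = 0.33). Among peaks at a −log10 q of 3 or more the groups overlapped, at 43.0 and 33.6 kb in siORCA and 42.2 and 52.9 kb in control. For scale, regions in 2 lists had a median distance of 13.2 kb and regions in 3 lists of 8.07 kb, against 22.9 kb for all single-sample regions. Constant regions lay a median of 4.65 kb from the nearest other one. Which regions count as constant depends on the lists used: without control 1 or control 2, so that 3 lists had to share a region, the mean over samples was 13.4 and 12.6 kb, against 22.6 kb with all 4 lists.

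Within 10 kb of a constant region lay 35.1% of the single-sample regions of siORCA 1 and 39.8% of those of siORCA 2, against 32.6% in control 1 and 31.1% in control 2. That distance takes in 21.96% of chromosome length, so the regions were 1.60, 1.81, 1.49 and 1.42 times as frequent there as an even spread over the length would give. This proximity ratio averaged 1.71 ± 0.151 in siORCA and 1.45 ± 0.0493 in control, without overlap between them (SD, n = 2 each; permutation test, exact p = 0.33). Regions in 2 lists had a ratio of 2.03 and regions in 3 lists 2.48, against 1.55 for all single-sample regions. With peaks merged over gaps of up to 1 kb, which leaves no region within 1 kb of a constant one, the ratio was 1.13 and 1.32 in siORCA and 1.04 and 0.982 in control. The length within 10 kb still counts that emptied 1 kb, which lowers this ratio.

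Density by distance showed a gradient and no edge. In siORCA 1 there were 85.6 single-sample regions per Mb at 1 to 5 kb from a constant region, 62.7 at 10 to 20 kb, 41.7 at 50 to 100 kb and 22.2 beyond 200 kb. In siORCA 2 these were 24.8, 16.5, 9.89 and 3.42 per Mb. In control 1 they were 26.2, 19.9, 14.8 and 7.66 per Mb, and in control 2 they were 49.2, 38.6, 29.3 and 17.4 per Mb. The density at 1 to 5 kb was therefore 3.86 times that beyond 200 kb in siORCA 1, 7.25 times in siORCA 2, 3.43 times in control 1 and 2.82 times in control 2. Over only those 100 kb windows that held a peak of any list, which leaves out stretches with none, these ratios were 3.22, 6.05, 2.86 and 2.35. With peaks merged over gaps of up to 1 kb they were 2.90, 5.59, 2.55 and 2.09. Without either change, the mean ratio was 4.34 with all lists and 6.76 without control 2.

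**Figure D2:**
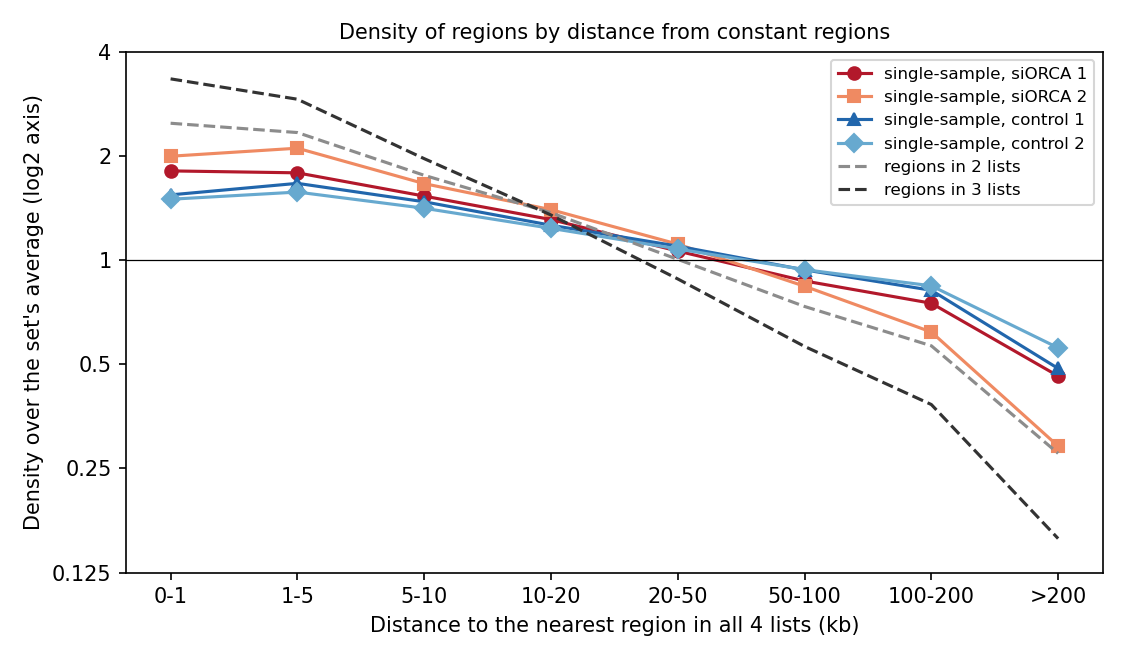
Density of regions at each distance (kb) from the nearest region in all 4 lists, divided by the average density of the same set, on a log2 axis, for the single-sample regions of each sample and, dashed, for regions in 2 and 3 lists. Beyond 5 kb all 6 lines slope down, and the single-sample lines end at 0.290 to 0.557 beyond 200 kb. The line of regions in 3 lists, from 3.33 to 0.157, is the steepest.

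Regions in 2 lists had 2.33 times their average density at 1 to 5 kb and 0.276 times beyond 200 kb, and regions in 3 lists 2.91 and 0.157 times. For all single-sample regions these were 1.74 and 0.475 times. Right beside constant regions, single-sample regions were scarce, with 0.622% of them within 0.3 kb, which takes in 1.12% of the length outside constant regions. No 2 peaks of a list lay closer than 330 bp in siORCA 1, 414 bp in siORCA 2, 428 bp in control 1 and 369 bp in control 2, so a list leaves a gap around each of its own peaks. Width was somewhat smaller far from constant regions in all 4 samples. In siORCA 1 the median was 137 bp (4.01-fold) at 1 to 5 kb and 130 bp (4.02-fold) beyond 200 kb. In siORCA 2 it was 152 bp (3.63-fold) and 135 bp (3.78-fold), in control 1 165 bp (3.45-fold) and 151 bp (3.37-fold), and in control 2 157 bp and 149 bp, both at 3.64-fold. Fold was thus higher far away in siORCA 2, lower in control 1 and close to level in siORCA 1 and control 2.

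The far end of the distribution was not small. More than 100 kb from any constant region lay 21.5% of the single-sample regions of siORCA 1 (30966) and 15.4% of those of siORCA 2 (5471), against 22.9% in control 1 (10880) and 25.1% in control 2 (23589). More than 1 Mb away lay 2029 in siORCA 1, 194 in siORCA 2, 584 in control 1 and 1627 in control 2. The farthest of siORCA 1 was on chromosome 9 from 63684456 to 63684574, with 13054 kb to the nearest constant region and 4955 kb to the nearest peak of any other list. The farthest of control 2 was also on chromosome 9, from 58729452 to 58729574, with 9905 kb and 1878 kb. The farthest of siORCA 2, on chromosome X from 28055231 to 28055338, and of control 1, on chromosome X from 28037704 to 28037821, lay 9261 kb and 9244 kb from a constant region. Those on chromosome X had other lists' peaks 0.472 kb and 5.01 kb away, unlike the isolated ones on chromosome 9. The latter lay in a long stretch nearly without regions. Its 1 Mb windows starting from 49 to 75 Mb held no constant region and at most 4 single-sample regions of any sample. Their distances therefore depend on the length of that stretch.

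Constant regions were themselves clustered. Chains of at least 3 constant regions with gaps of at most 20 kb, used here as a stand-in for initiation zones, numbered 4983, had a median width of 31.7 kb and held 68.6% of constant regions in 7.88% of chromosome length. Inside them lay 14.2% of the single-sample regions of siORCA 1 and 16.6% of those of siORCA 2, against 12.5% in control 1 and 11.5% in control 2 (15.4 ± 1.66% in siORCA and 12.003 ± 0.696% in control, SD, n = 2 each; permutation test, exact p = 0.33, with no overlap of the groups). Most single-sample regions, 86.6% or 278200 of 321331, thus lay outside the chains. Among peaks at a −log10 q of 3 or more the groups overlapped, and without control 2, where chains are built from 3 lists, the mean share inside was 21.5%, against 13.7% with all 4 lists.

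By length not taken up by constant regions, density inside the chains was 99.6 per Mb in siORCA 1, against 44.2 outside. In siORCA 2 it was 28.5 inside and 10.6 outside, in control 1 28.8 and 14.8, and in control 2 52.6 and 29.7 per Mb. Single-sample regions were thus 2.08 times as frequent inside as an even spread gives in siORCA 1, 2.42 times in siORCA 2, 1.83 times in control 1 and 1.68 times in control 2. Pooled over samples they were 1.96 times as frequent, while regions in 2 lists were 2.93 times and regions in 3 lists 4.08 times as frequent. Most chains held single-sample regions of more than 1 sample. Single-sample regions of all 4 samples were present in 1509 chains (30.3%), of 3 samples in 1400, of 2 samples in 1139 and of 1 sample in 651, and 284 chains (5.70%) had none. The chains held 43131 single-sample regions in all, and the samples per chain that an even spread would give were not computed. These counts therefore do not show whether samples shared chains more often than their numbers alone would give.

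**Figure D3:**
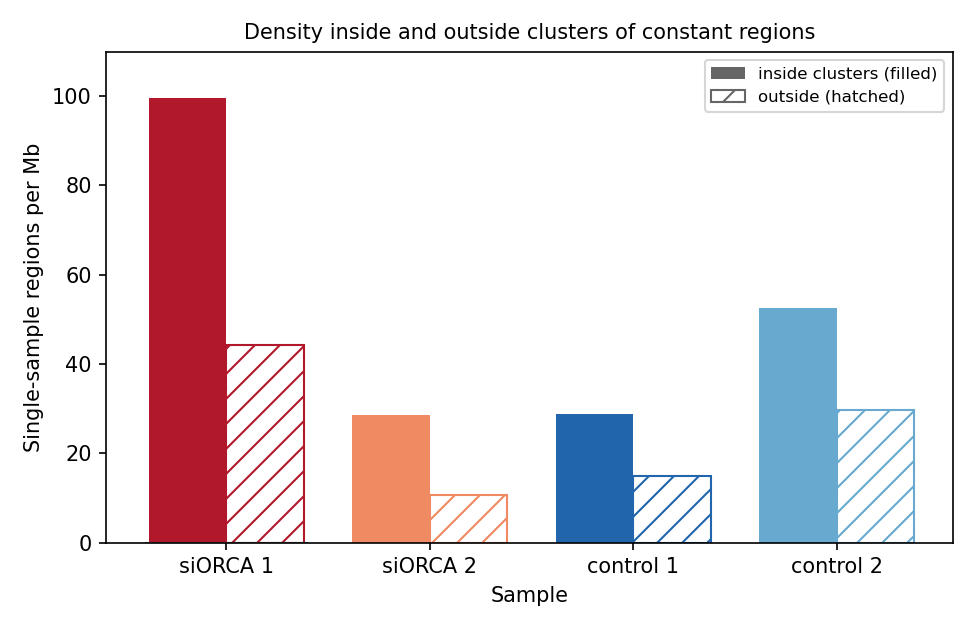
Single-sample regions per Mb inside (filled bars) and outside (hatched bars) chains of at least 3 constant regions, by sample, over length not taken up by constant regions. Density is higher inside in all 4 samples, from 28.5 to 99.6 per Mb against 10.6 to 44.2 outside.

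Single-sample regions of different samples lay near one another somewhat more often than an even spread over the length gives. Within 10 kb of a single-sample region of another list lay 74.7% of those of siORCA 1 and 89.0% of those of siORCA 2, against 85.5% in control 1 and 79.3% in control 2. The length within that distance was 62.4%, 75.8%, 74.1% and 68.4% in the same order, which gives ratios of 1.20, 1.17, 1.15 and 1.16. Such large shares of length set low ceilings on these ratios, which differ between samples. The means were 81.8 ± 10.1% in siORCA and 82.4 ± 4.37% in control (SD, n = 2 each; permutation test, exact p = 1), and both siORCA values lay outside the range of the controls, on either side. More than 50 kb from any constant region, where 48576 of the regions of siORCA 1, 9648 of siORCA 2, 17108 of control 1 and 35976 of control 2 lay, the ratios were 1.25, 1.25, 1.21 and 1.22. Ratios above 1 were therefore found away from constant regions too. The length used includes stretches without a peak of any list, and the nearness to other samples' regions was not computed without them. Over the 12 ordered pairs of samples the ratio ran from 1.19 to 1.37. Its highest possible value is set by the length near the other sample's regions, which was 19.6% for siORCA 2 and 55.2% for siORCA 1, so ratios to different samples cannot be ranked against each other.

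In windows of 1 Mb, single-sample regions were present almost everywhere. At least 1 was found in 96.4% of 3069 windows in siORCA 1, 93.3% in siORCA 2, 96.6% in control 1 and 97.6% in control 2, while constant regions were in 87.9%. The 370 windows without a constant region (12.1%) held 4.07% of the single-sample regions of siORCA 1, 1.94% of siORCA 2, 3.99% of control 1 and 5.03% of control 2. The densest 10% of windows, taken for each set alone, held 19.7% of the single-sample regions of siORCA 1, 25.5% of siORCA 2, 20.2% of control 1 and 18.1% of control 2, but 44.9% of constant regions. Spread over windows was thus more even for single-sample regions in all 4 samples.

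Across windows, the number of single-sample regions followed that of constant regions, with Spearman's rho of 0.83 in siORCA 1, 0.82 in siORCA 2, 0.70 in control 1 and 0.70 in control 2 (3069 windows, a description, since neighbouring windows are not independent and both counts come from the same lists and share their base composition and mappability). From windows without a constant region to those with over 60, the mean number per window went up from 15.9 to 84.1 in siORCA 1, from 1.86 to 24.3 in siORCA 2, from 5.11 to 24.5 in control 1 and from 12.8 to 45.5 in control 2. Constant regions averaged 89.4 per window in that top class. The share of all regions that were single-sample was therefore lower where constant regions were dense, from 83.6% in windows with none to 43.9% in windows with over 60, pooled over samples. As a share of a sample's own regions, it was 75.5% in windows with none and 29.7% in windows with over 60 in siORCA 1, 35.7% and 11.4% in siORCA 2, 61.4% and 13.5% in control 1, and 76.7% and 22.7% in control 2. Windows were grouped by constant regions, which also count in the denominator of all these shares, so part of each drop is built in.

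**Figure D4:**
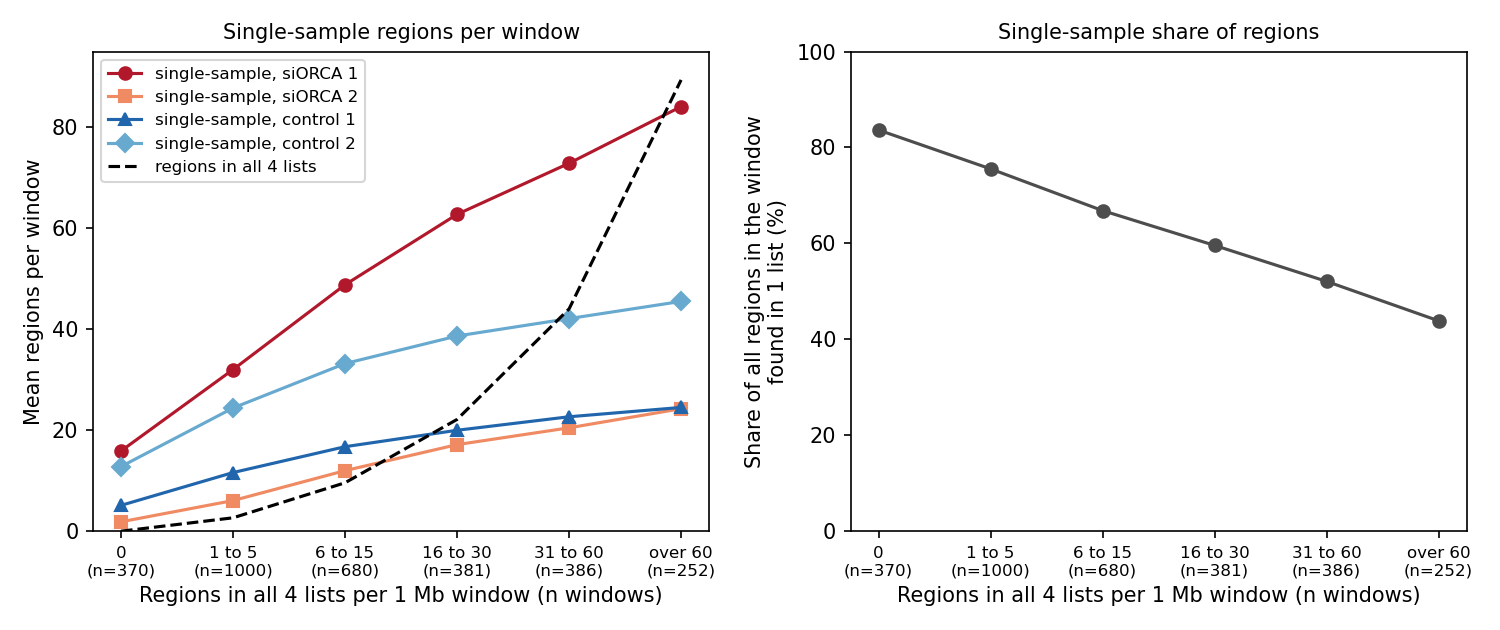
Left, mean number of single-sample regions of each sample and of regions in all 4 lists (dashed) per 1 Mb window, for windows grouped by how many regions in all 4 lists they hold (number of windows in brackets). Right, the share of all regions of those windows that were single-sample (%). Single-sample regions become more frequent along the axis but flatten, so that their share drops to 43.9% in the last class from 83.6% in the first. Regions in all 4 lists also count in the denominator of that share, so part of the drop is built into the axis.

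Chromosomes were ranked by mean density over the 4 samples, in which siORCA 1, with the most regions, weighs most. By that mean, single-sample regions were densest on chromosome 19. Densities there were 72.7 per Mb in siORCA 1, 14.6 in siORCA 2, 23.7 in control 1 and 42.1 in control 2. Chromosome 20 followed with 69.1, 16.9, 20.03 and 43.3 per Mb, and chromosome 17 with 64.7, 19.4, 17.7 and 38.3 per Mb. By the same mean the lowest densities were on chromosome X, at 27.8, 3.40, 7.09 and 16.7 per Mb. Next came chromosome 13 at 33.2, 4.18, 10.2 and 24.2 per Mb and chromosome 4 at 33.8, 7.60, 11.95 and 27.1 per Mb. Chromosomes 17 and 19 are known as gene-dense and early replicating, and chromosomes 4 and 13 as gene-poor. Neither gene density nor the copy number of chromosomes in these cells was measured here. The samples did not share a single order. Chromosome 19 was highest in siORCA 1 and control 1, chromosome 17 in siORCA 2 and chromosome 20 in control 2. Chromosome 22, at 17.2 per Mb in siORCA 2, was above chromosomes 20 and 19 in that sample. Chromosome 11, at 20.1 per Mb in control 1, was above chromosome 17 there. Chromosome X was lowest in all 4.

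The range over chromosomes was narrow beside that of constant regions. The highest density was 2.61 times the lowest in siORCA 1, 5.71 times in siORCA 2, 3.35 times in control 1 and 2.59 times in control 2, against 18.3 times for constant regions, at 54.8 per Mb on chromosome 22 and 2.99 on chromosome X. The coefficient of variation over the 23 chromosomes was 22.4% in siORCA 1 and 33.5% in siORCA 2, against 22.01% in control 1 and 17.9% in control 2 (28.0 ± 7.84% in siORCA and 19.97 ± 2.89% in control, SD, n = 2 each; permutation test, exact p = 0.33), and 64.6% for constant regions. The groups overlapped in this with the stricter lists, with lists of matched covered length and with gaps merged. Of a sample's own regions on chromosome X, 67.3% were single-sample in siORCA 1, 24.01% in siORCA 2, 42.02% in control 1 and 63.6% in control 2. On chromosome 22 the shares were 33.1%, 12.7%, 15.6% and 26.3% in the same order, lower in every sample.

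The median distance to the nearest constant region was short on chromosome 22, at 5.62 kb in siORCA 1, 4.08 kb in siORCA 2, 5.83 kb in control 1 and 6.13 kb in control 2. It was long on chromosome X, at 221 kb, 74.3 kb, 178 kb and 333 kb in the same order. On chromosome 13 it was 97.05 kb, 50.02 kb, 96.7 kb and 109.7 kb. Set against the length near constant regions, which was 4.27% on chromosome X, the share within 10 kb gave ratios of 2.68, 4.25, 3.13 and 1.86 there, the highest of any chromosome in each sample. On chromosome 19, with 50.7% of its length near constant regions, no ratio above 1.97 is possible, and the ratios were 1.22, 1.33, 1.28 and 1.19. The lowest ratio was on chromosome 19 in siORCA 1 and siORCA 2 and on chromosome 20 in control 1 (1.17) and control 2 (1.13). In each sample the ratio was above 1 on all 23 chromosomes.

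**Figure D5:**
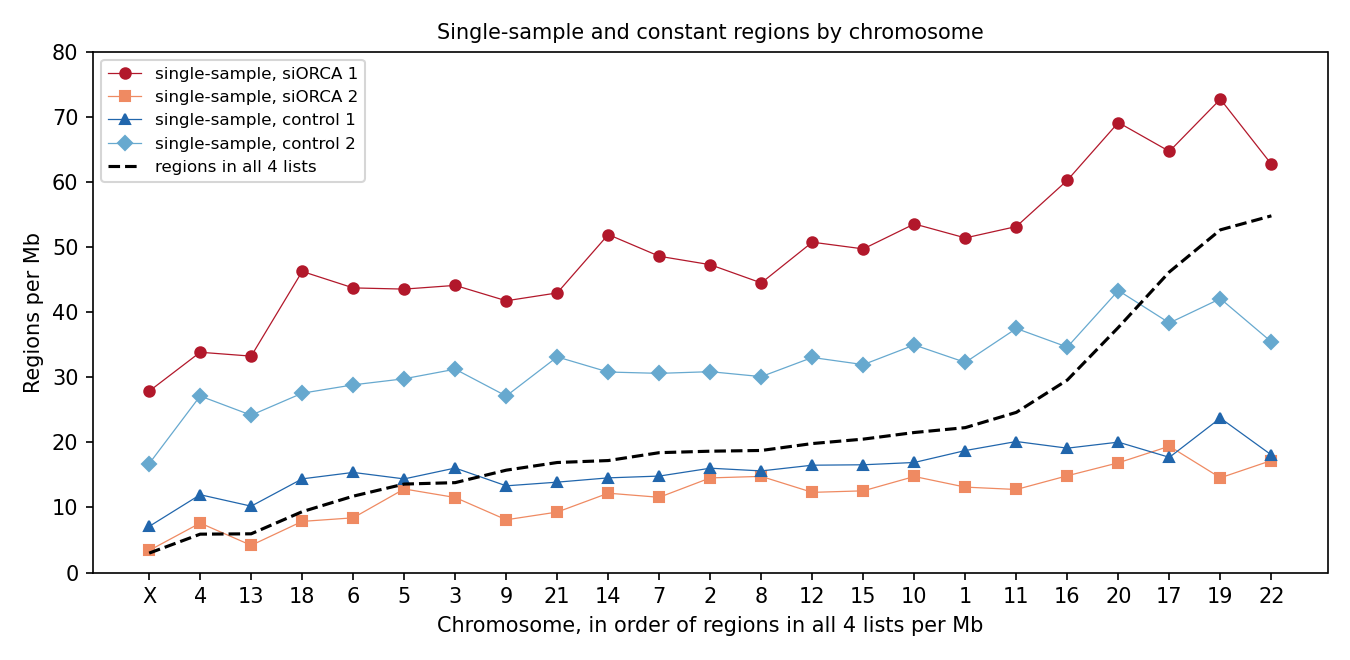
Single-sample regions per Mb on each chromosome for each sample, and regions in all 4 lists per Mb (dashed), with chromosomes in order of the latter. Regions in all 4 lists climb to 54.8 per Mb on chromosome 22 from 2.99 on chromosome X, whereas each sample's single-sample regions vary 2.59 to 5.71 times.

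The share of a sample's single-sample regions that fell on a chromosome was higher in the 2 siORCA samples than in either control on 6 of 23 chromosomes (7, 14, 16, 17, 20 and 22), and lower on 4 (3, 4, 6 and 11). Over all regions of a list the same held for 1 chromosome in each direction, 4.35% higher and 4.35% lower. On chromosome 17 the share was 3.78% and 4.61% in siORCA, against 3.14% and 3.43% in control, and on chromosome 22 it was 2.23% and 2.49% in siORCA, against 1.95% and 1.93% in control. On chromosome 4 it was 4.54% and 4.15% in siORCA, against 4.88% and 5.57% in control. On chromosome 11 it was 4.97% and 4.86% in siORCA, against 5.73% and 5.38% in control. No single chromosome can give a p under 0.33 in this design. With 2 samples against 2, some chromosomes are likely to separate in either direction by chance, and the counts were not tested against that. Among peaks at a −log10 q of 3 or more, the counts were 0 higher and 1 lower, and with lists of matched covered length they were 3 and 3. Leaving out siORCA 1 gave 11 higher and 10 lower, leaving out siORCA 2 gave 11 and 6, and leaving out control 1 or control 2 gave 7 and 7 each. Each of these leaves 1 sample in a group, where separation by chance is easier, and also redefines single-sample regions over 3 lists.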

How the data were processed

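NS-seq peaks of 2 siORCA and 2 control samples of U2OS cells were analysed. The submitters' processing notes name BWA, SAMtools, MACS2 and the genome build T2T-CHM13. Not given in the sources used here are versions, settings and the caller's background. The authors deposited 1 broad peak list per sample, so replicates were not pooled. Each deposited peak has a position, a score, a fold enrichment (linear ratio) and a −log10 p and −log10 q, the lowest −log10 q being about 1.30 in every list. Depth is unknown, and no intervals from counts can be given.

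Peaks on chromosomes 1 to 22 and X were merged where they touched or overlapped, and 32 to 421 peaks of a list lay elsewhere. Chromosome length was taken as the end of the last peak in any list. Near means within 10 kb, edge to edge. Groups were compared by a two-sided exact permutation test over samples. Regions are not replicates and got no test. Merging, distances and lengths were tested on simulated data against a base-by-base count and matched it. Regions were named by rule: per sample the widest, the strongest and the farthest from a constant region. Chromosomes named were the 3 densest and 3 sparsest by mean density over the samples. Alternatives were stricter lists (peaks at a −log10 q of 3 or more), lists matched in covered length, merging over 1 kb gaps, other distances and chain gaps, windows with a peak only, each replicate left out and a replicate block, and, chosen after seeing the data, the same settings for the density ratio and the chromosome counts and a crossed block. The members and measures were chosen with earlier results of these data known. No genome sequence or annotation of T2T-CHM13 was used here, so sequence features were not computed and positions carry no gene annotation. Python 3.11.15, numpy 2.4.6, pandas 2.3.3, scipy 1.17.1 and matplotlib 3.10.9 were used.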

Additional observations from a re-analysis of the deposited data

How the results depend on the processing

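The number and the share of single-sample regions, and the share near another sample's, changed the sign of the difference between groups (siORCA minus control) with the setting, and the causes were not tested. The difference in number was −18037 at matched covered length, and from −25196 to 94326 with 1 sample left out (−25196 without siORCA 1, −429 without control 1). The difference in share was 11.1 percentage points with the stricter lists, and from −9.76 to 15.3 with 1 sample left out (15.3 without siORCA 2, 6.12 without control 2). That in the share near another sample's was 5.45 at matched covered length, 0.0431 at 50 kb, and from −10.1 to 8.95 with 1 sample left out (8.95 without siORCA 1, 2.03 without control 1). In width, distance, nearness to constant regions, chains and variation over chromosomes, the difference kept its sign in every setting run, but not its size. With 1 sample left out it ran from −22 to −6 bp in width (−6 without siORCA 1), from −7.53 to −3.32 kb in distance (−3.61 without siORCA 2, −3.32 without control 2), from 3.89 to 10.002 points within 10 kb (10.002 without siORCA 1), from 0.160 to 0.410 in the ratio (0.160 without siORCA 2, 0.410 without siORCA 1), from 2.87 to 6.55 points in chains (6.55 without siORCA 1, 5.10 without control 1) and from 3.50 to 13.7 points in variation (3.50 without siORCA 2, 13.7 without siORCA 1). With the stricter lists it was 2.98 points within 10 kb, 0.858 in chains and 3.84 in variation, and at 50 kb the ratio differed by 0.138. Chain gaps of 10 and 50 kb gave 1.72 and 5.88 points.

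With the stricter lists the means over samples were a width of 166 bp, a distance of 42.9 kb, 24.03% within 10 kb, a ratio of 2.004, 6.38% in chains and 66.6% near another sample's. Merging over 1 kb gave 29.8 kb, 28.1%, a ratio of 1.12, 9.15% in chains, 63.98% near another sample's and a variation of 15.97%. At matched covered length 75.4% lay near another sample's. At 5 kb the shares were 22.9% near a constant region and 62.3% near another sample's. At 50 kb they were 66.2% and 99.4%, with a ratio of 1.36. Chain gaps of 10 and 50 kb gave 5.83% and 29.4%. These shifts in part follow from the wider or narrower distance itself and, with merging, from the emptied 1 kb beside constant regions. Chromosomes without overlap numbered 0 higher and 1 lower with the stricter lists and 3 higher at matched covered length. With 1 sample left out the ranges were 147 to 159 bp, 12.6 to 17.95 kb, 38.5% to 45.5% within 10 kb, 16.2% to 21.5% in chains, 72.2% to 80.2% near another sample's, a density ratio of 4.47 to 6.76, and 7 to 11 chromosomes higher and 6 to 10 lower.

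With the replicate number as a replicate block the difference in distance was −7.22 kb, with an exact sign-flip p of 0.5, the smallest that 2 pairs can give, and 0 of 9 comparisons passed. Deviations of same-numbered samples correlated at −0.21 over 3023 windows. A crossed pairing, chosen after seeing the data, also passed 0 of 9. Depth is not given by the lists, and its part in the counts was not tested.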
